A study of Mus musculus with 12 samples.

Results

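The comparison is between interleukin-9 (IL-9) and the chemokine CCL1 in BW5147, a mouse T lymphoma line of thymic origin, with and without the glucocorticoid dexamethasone (Dex). It was chosen by sample title and used 8 of the 12 arrays of the series, 4 with IL-9 and 4 with CCL1. The IL-9 arrays comprised cells given IL-9 alone and cells given Dex with IL-9, and the CCL1 arrays comprised cells given CCL1 alone and cells given Dex with CCL1, with 2 arrays per group. The remaining 4 arrays, of Dex-treated and of unstimulated cells, had no cytokine. IL-9 and CCL1 were given at 100 U/ml and Dex at 100 ng/ml, all for 8 h. The line is a single tumour line without other cell types, and the labels do not say whether the arrays numbered 1 and 2 came from separate cultures, so p-values measure a spread that may be technical. Each IL-9 array was paired with the CCL1 array of the same Dex label and number, which gave 4 pairs.

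IL-9 signals through its own receptor chain and the common gamma chain, which activate the JAK kinases and STAT transcription factors, and SOCS proteins feed back on that pathway. CCL1 signals through Ccr8, a receptor coupled to inhibitory G proteins, from which the ERK kinase cascade can be engaged. Dual-specificity phosphatases such as Dusp6 feed back on ERK. Both ligands are known as survival factors for thymic lymphoma cells exposed to glucocorticoids.

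Expression was read as Affymetrix MAS5 signal, scaled so that the trimmed mean of an array was 100, and differences are in log2(signal + 16), which understates folds of low genes. The summed signal of 8 genes listed as T cell markers was 5543 to 6029 with IL-9 and 5640 to 6917 with CCL1. The highest of them was Ptprc, which is not particular to T cells. The sum hides low members, since single values went down to 3.09 with IL-9 and 0.6 with CCL1. Of 14 T cell receptor and lineage genes on the array, 8 passed the filter on low signals. Cd2, Cd247, Cd4, Cd5, Cd8a and Cd8b1 did not. The summed signal of 4 B cell markers was at most 13.0 and 25.4, and no myeloid, erythroid or fibroblast marker exceeded 24.6 with IL-9 or 20.6 with CCL1. The array CCL1 2 was of another array type and had a table of its own, so the main count and the list counts are also given for the 3 pairs of the larger table. The arrays numbered 1 without Dex had 12 known glucocorticoid targets at the level of the arrays with Dex. Their centred mean log2 value was 0.17 in IL-9 1, 0.20 in CCL1 1 and 0.34 in unstimulated 1, against 0.13 to 0.34 in the 6 arrays with Dex, and -0.73 in IL-9 2, -0.62 in CCL1 2 and -0.57 in unstimulated 2. Results are therefore also given without the pair labelled no Dex 1.

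With IL-9, signals of the nuclear IkB protein Bcl3, the protease Gzma, the kinase Sgk1, the NDRG family member Ndrg3, the cytokine signalling inhibitor Socs1 and the prostaglandin receptor Ptger4 were above those with CCL1 by 1.43 to 2.66 in log2(signal + 16). With CCL1, the ERK phosphatase Dusp6, the chemokine receptors Ccr9 and Ccr8, and Tuba8 were the higher ones. In the paired model 297 of 13575 probe sets (2.19%) differed at an adjusted p under 0.05, 134 higher with IL-9 (0.987%) and 163 lower (1.2%). With each array centred on its median the split turned, to 165 higher and 139 lower. Of the 134 and 163, 5 and 3 passed the filter on low signals only through the group in which they were high, and these had to differ. The count was 219 in the 3 pairs of the larger table, 192 without the pair labelled no Dex 1, 109 without the Dex 1 pair and 90 without the pairing. All 297 kept their direction in the larger table alone. That fit reuses 3 of the 4 pairs from which the 297 were called, so this is no separate support. Of the 219 called there, 90.4% had the same direction in the left-out pair, against 56.1% of all probe sets tested.

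The differences were mostly moderate in size. The median was 0.60 among the 134 probe sets higher with IL-9 and -0.63 among the 163 lower, and 18 and 17 of them passed 1 on the log2 scale. The 4 IL-9 arrays did not overlap the 4 CCL1 arrays in 82 and 110 of them, where 5.08% of all probe sets did not overlap. All 4 pairs had 1 direction in 132 and 161, where 19.6% of all did. The calls were made from these same arrays and pairs. Both counts therefore follow in large part from the call and are no separate support. Counted as genes with 1 probe set each, 184 of 7527 were called (2.44%), 89 higher with IL-9 (1.18%) and 95 lower (1.26%). Counts of called list members below are to be read against these shares. The lists were chosen with earlier results of these data known, so such counts are no separate support.

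**Figure D1:**
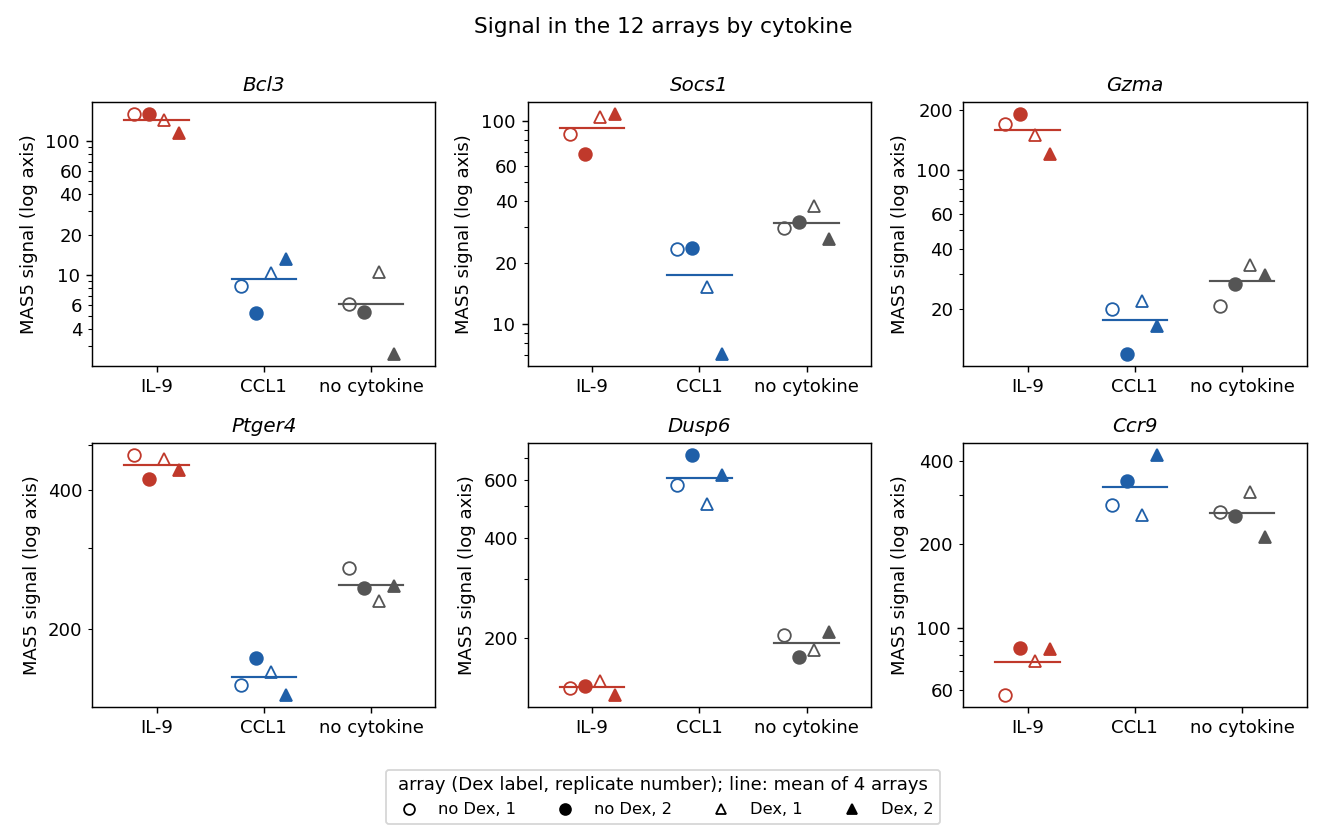
MAS5 signal (log axis) of 6 genes in the 12 arrays, by cytokine; points are arrays, marked by Dex label and replicate number, and lines are means of 4 arrays. IL-9 and CCL1 arrays do not overlap for any of the 6, and Dusp6 is at 134 to 148 with IL-9 and 509 to 716 with CCL1.

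Bcl3, a nuclear IkB family member that acts with NF-kB subunits on transcription and is a known STAT target, had the largest difference. In this and the following sentences signals are in the order no Dex 1, no Dex 2, Dex 1, Dex 2. Bcl3 was at 159, 158, 143 and 114 with IL-9 and at 8.31, 5.28, 10.4 and 13.3 with CCL1. The groups were far apart, and the arrays without cytokine lay with the CCL1 arrays at 6.13 ± 3.27 (SD, n = 4). The log2 difference was 2.66 ± 0.15 (SE, 4 pairs, adjusted p = 3.09e-07, limma). Gzma, which encodes granzyme A, a serine protease of cytotoxic granules, was at 170, 192, 151 and 120 with IL-9 and at 20.2, 11.98, 22.1 and 16.5 with CCL1. Its groups did not overlap either, and its difference was 2.36 ± 0.14 (adjusted p = 4.51e-07). Of the 11 granule genes listed only 3 passed the filter on low signals, and Gzma was the 1 called. Srgn, the proteoglycan core of granules, had 0.36 (adjusted p = 0.056) and passed the threshold under 6 of 16 alternatives.

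Socs1, which blocks JAK kinases, was at 86.2, 68.1, 104 and 108 with IL-9 and at 23.4, 23.6, 15.1 and 7.12 with CCL1. Each IL-9 array was above each CCL1 array, and the difference was 1.71 ± 0.19 (adjusted p = 0.000179). Stat3, a transcription factor activated by IL-9, was at 600, 637, 560 and 635 with IL-9 and at 270, 293, 285 and 376 with CCL1, a difference of 0.96 ± 0.09 (adjusted p = 3.89e-05) without overlap. Socs2 differed by 0.68 ± 0.13 (adjusted p = 0.013), but only by 0.09 in the no Dex 2 pair. Its call was lost without the Dex 1 pair (adjusted p = 0.12) and without the Dex 2 pair (0.068).

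Of the 14 tested JAK-STAT feedback and target genes, 7 were higher with IL-9, where 1.18% of all genes were higher. They were Bcl3, Fos, Gzma, Junb, Socs1, Socs2 and Stat3. The list was chosen with earlier results of these data known, so its count is no separate support. Lower was 1, where 1.26% of all genes were lower (Xbp1, a factor of the secretory pathway, -0.38, adjusted p = 0.029). The median was 0.60, against 0.00 over all 7527 genes. Without the no Dex 1, Dex 1 or Dex 2 pair the call of Xbp1 was lost (adjusted p = 0.066, 0.205 and 0.098). The listed targets Myc (0.10, adjusted p = 0.689) and Pim1 (0.29, adjusted p = 0.44) were not called. Among 14 tested STAT and JAK genes themselves, Stat3 and Jak3 were higher and Stat4 lower. The kinase Jak3, which binds the common gamma chain, was at 47.2, 62.8, 59.7 and 45.7 with IL-9 and at 28.7, 20.8, 31.3 and 30.6 with CCL1 (0.67 ± 0.14, adjusted p = 0.026). These arrays did not overlap, yet the call was lost without the no Dex 2 pair (adjusted p = 0.137) and without the Dex 1 pair (0.144). Jak1, its partner at the IL-9 receptor, had 0.04 (adjusted p = 0.927). Stat4, which transmits IL-12 signals, had -0.62 ± 0.08 (adjusted p = 0.0013), and its call rested on the pairing (adjusted p = 0.774 without it).

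The immediate-early genes Fos and Junb encode subunits of the AP-1 factor. Fos was at 41.1, 30.3, 38.7 and 30.3 with IL-9 and at 13.5, 6.61, 7.84 and 7.86 with CCL1 (1.04 ± 0.14, adjusted p = 0.00126). Junb was at 67.5, 71.2, 60.6 and 69.2 with IL-9 and at 33.6, 40.4, 25.9 and 34.2 with CCL1 (0.75 ± 0.12, adjusted p = 0.00387). In neither gene did the groups overlap. The orphan nuclear receptor gene Nr4a1 was the only other call among the 16 tested immediate-early genes and had the opposite direction. Zfp36, an RNA-binding protein that promotes decay of cytokine mRNAs, was higher with IL-9 by 1.01 ± 0.15 (adjusted p = 0.00191) and the stress gene Gadd45b by 0.98 ± 0.13 (adjusted p = 0.00131). Arid5a, an RNA-binding protein that stabilises cytokine mRNAs, was at 317, 216, 265 and 243 with IL-9 and at 113, 104, 116 and 133 with CCL1. The difference was 1.05 ± 0.10 (adjusted p = 5.98e-05).

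Sgk1, a kinase downstream of PI3K and also a known glucocorticoid target, was at 234, 226, 311 and 241 with IL-9 and at 70.7, 48.9, 67.0 and 62.6 with CCL1. The groups did not overlap, and the difference was 1.78 ± 0.10 (adjusted p = 3.09e-07). Ndrg3, of the NDRG family to which known SGK1 substrates belong, was at 653, 210, 694 and 616 with IL-9 and at 84.2, 68.8, 74.7 and 71.8 with CCL1. All IL-9 arrays were above all CCL1 arrays, although the IL-9 2 array was well below the other 3, and the difference was 2.49 ± 0.19 (adjusted p = 6.41e-06). Both were called among 6 tested SGK and NDRG genes, where 2.44% of all genes were called. Foxo1, a factor restrained by these kinases, had 0.13 (adjusted p = 0.796). Of the 13 tested glucocorticoid targets, Sgk1 and the metallothionein Mt1 were higher with IL-9, and the co-repressor Tle3 and the proton-sensing receptor Gpr65 lower. Mt1 differed by 0.61 ± 0.12 (adjusted p = 0.019) and lost its call without the no Dex 2 pair (0.125) and the Dex 1 pair (0.178). Tle3 had -0.90 ± 0.09 (adjusted p = 5.73e-05), and Gpr65 had -0.53 ± 0.09 (adjusted p = 0.00437), lost without the pairing (0.884), with all 12 arrays in 1 model (0.284) and without the Dex 1 pair (0.064). Fkbp5, a much used glucocorticoid target, had 0.26 (adjusted p = 0.211).

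STAT factors bind palindromes of the form TTCNNNGAA, and AP-1 binds TGANTCA. Both strands of the promoters in RefSeq's mouse assembly GRCm38.p6, 250 bases before to 50 after a start, were searched for the 2 patterns each counted on its own. Of the 15 largest differences towards IL-9, 14 genes matched with 20 promoters, and 3 promoters (15%) held TTCNNNGAA, those of Samhd1, Sgk1 and Zfp36. Of 32851 promoters of all genes 8.3% held it, and 0 of the 8 promoters matched to 8 of the 15 genes with the largest differences towards CCL1. TGANTCA was in 1 of the 20 (Tnfsf14) and 0 of the 8, against 7.81% of all. A match describes letters only. The 3 matching sequences are shown because these genes were higher with IL-9 and carry the STAT pattern. They are the 250 bases before the start, 5′ to 3′ on the gene's strand, with the pattern in capitals, beginning 235, 223 and 17 bases before the start. They lie at chr2:157135097-157135346 on the minus strand (Samhd1), chr10:21881934-21882183 on the plus strand (Sgk1) and chr7:28379229-28379478 on the minus strand (Zfp36).
Samhd1: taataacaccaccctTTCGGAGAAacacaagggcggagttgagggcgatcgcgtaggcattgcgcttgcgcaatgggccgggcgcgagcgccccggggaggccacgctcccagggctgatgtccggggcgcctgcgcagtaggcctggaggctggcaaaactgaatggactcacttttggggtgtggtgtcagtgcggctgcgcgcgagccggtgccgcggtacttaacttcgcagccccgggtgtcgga
Sgk1: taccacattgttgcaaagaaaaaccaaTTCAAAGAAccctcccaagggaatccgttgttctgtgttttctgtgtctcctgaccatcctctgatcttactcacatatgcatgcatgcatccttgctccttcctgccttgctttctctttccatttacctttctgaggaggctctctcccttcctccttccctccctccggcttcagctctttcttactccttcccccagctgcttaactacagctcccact
Zfp36: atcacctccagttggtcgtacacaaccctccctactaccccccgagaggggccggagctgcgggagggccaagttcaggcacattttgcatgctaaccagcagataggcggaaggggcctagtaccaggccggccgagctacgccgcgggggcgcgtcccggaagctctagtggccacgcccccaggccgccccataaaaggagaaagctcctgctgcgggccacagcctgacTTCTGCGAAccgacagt

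Ptger4, a receptor for prostaglandin E2 that raises cAMP, was at 477, 423, 466 and 441 with IL-9 and at 152, 174, 162 and 145 with CCL1. The arrays of each cytokine were close together and did not overlap (1.43 ± 0.09, adjusted p = 4.51e-07). Pde7a, a phosphodiesterase that degrades cAMP, had the opposite direction, at 58.9, 44.7, 73.2 and 46.4 with IL-9 and 144, 89.3, 167 and 142 with CCL1 (-1.07 ± 0.11, adjusted p = 0.000148). These were the 2 calls among 9 tested genes of the cAMP axis, where 2.44% of all genes were called. Gnas, the stimulatory G protein subunit, had -0.11 (adjusted p = 0.752).

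Of the genes with 1 direction in all pairs, the remaining ones with large differences towards IL-9 were Il10, Tha1, Samhd1, Tnfsf14 and Fam102a. Tha1, a threonine aldolase, was at 46.0, 23.7, 44.2 and 20.8 with IL-9 and at 0.846, 0.392, 0.863 and 10.4 with CCL1, a difference of 1.37. It passed the filter only through the IL-9 arrays, and its call, which was lost without the filter (adjusted p = 0.052), is no support for a difference. Samhd1, an enzyme that degrades deoxynucleotides, had 1.10 ± 0.12 (adjusted p = 0.000251), and the IL-9 2 array (154) overlapped the CCL1 arrays. The anti-inflammatory cytokine gene Il10 (1.56 ± 0.28, adjusted p = 0.0088), the TNF family ligand Tnfsf14 (1.04 ± 0.18, adjusted p = 0.00587) and Fam102a (0.99 ± 0.18, adjusted p = 0.0079) varied between pairs. Their calls were lost without the Dex 1 pair (adjusted p = 0.091, 0.067 and 0.087), and that of Fam102a also without the Dex 2 pair (0.053). Il10 was the only gene called higher of 7 tested cytokine and chemokine genes, and Tnfsf14 the only one called of 9 tested TNF superfamily genes. Tgfb1, which encodes a cytokine of many actions on T cells, was lower with IL-9 (-0.67 ± 0.10, adjusted p = 0.00254, and 0.158 without the pairing).

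Dusp6, which dephosphorylates ERK, had the largest difference towards CCL1. It was at 141, 142, 148 and 134 with IL-9 and at 578, 716, 509 and 622 with CCL1. The 4 IL-9 arrays were within a narrow range, and the CCL1 arrays were all far above it. The difference was -1.97 ± 0.09 (adjusted p = 1.26e-07). Of 7 tested genes of ERK feedback, 3 were lower with IL-9 and 0 higher, where 1.26% of all genes were lower, with a median of -0.31. Beside Dusp6 these were Phlda1, a pleckstrin-homology protein induced by ERK (-0.83 ± 0.14, adjusted p = 0.00572), and Spred2, an inhibitor of Raf activation (-0.49 ± 0.11, adjusted p = 0.028). Phlda1 lost its call without the pairing (0.271), the filter (0.066) or the Dex 1 pair (0.073), and Spred2 without any single pair (0.055 to 0.173). The ERK-responsive factor Etv5 had -0.31 (adjusted p = 0.149) and the inhibitor Spry1 -0.04 (adjusted p = 0.963). None of 7 other dual-specificity phosphatases was called, the nearest being Dusp10, which acts on stress kinases (-0.48, adjusted p = 0.063, and past the threshold under 2 alternatives, at 0.046 at the lowest). In the larger table alone Dusp1, a phosphatase of ERK and stress kinases that glucocorticoids induce, was called higher with IL-9 (0.56, adjusted p = 0.0144, against 0.39 and 0.145 over 4 pairs).

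Of 9 tested chemokine receptor and trafficking genes, 3 were lower with IL-9 and 0 higher, where 1.26% of all genes were lower, with a median of -0.21. Ccr9, the receptor for CCL25 that guides T cells to thymus and gut, was at 57.6, 84.6, 76.1 and 84.0 with IL-9 and at 278, 338, 254 and 420 with CCL1. The groups did not overlap (-1.87 ± 0.10, adjusted p = 3.09e-07). Ccr8, the receptor of CCL1 itself, was at 306, 86.9, 298 and 271 with IL-9 and at 590, 243, 553 and 623 with CCL1. Here the CCL1 2 array was below 3 IL-9 arrays, although each pair had the same direction (-1.06 ± 0.09, adjusted p = 2.86e-05), and without the pairing the gene was not called. Cxcr6 had -0.69 ± 0.11 (adjusted p = 0.00469, and 0.071 without the pairing). Its other tested probe set was not called (-0.45, adjusted p = 0.313, limma). Cxcr4, the receptor for CXCL12, had 0.09 (adjusted p = 0.805). RGS proteins shorten the signal of Gi-coupled receptors, and 3 of 13 tested genes of that group were lower with IL-9 and 0 higher, where 1.26% of all genes were lower. They were Rgs14 (-0.73 ± 0.12, adjusted p = 0.00426, and 0.17 without the pairing), Rgs2 (-0.80 ± 0.18, adjusted p = 0.032) and Rgs3 (-0.59 ± 0.14, adjusted p = 0.046). Rgs2 lost its call without the no Dex 1 pair (0.16) or the Dex 1 pair (0.226), and Rgs3 without the no Dex 2, Dex 1 or Dex 2 pair (0.161, 0.258 and 0.161).

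The tubulin gene Tuba8 was at 135, 151, 132 and 85.7 with IL-9 and at 384, 434, 443 and 427 with CCL1. It did not overlap (-1.65 ± 0.11, adjusted p = 1.64e-06) and was the 1 call of 7 tested tubulins. Usp18, which removes the ubiquitin-like ISG15 from proteins, was at 8.51, 15.3, 8.61 and 7.29 with IL-9 and at 31.1, 50.1, 31.0 and 30.7 with CCL1 (-0.99 ± 0.14, adjusted p = 0.00146). Of 13 tested interferon-response genes, Usp18 and the factor Irf8 were lower and the immunoproteasome subunit Psmb9 higher. Irf8 had -0.66 ± 0.13 (adjusted p = 0.014) and lost its call without the no Dex 1, Dex 1 or Dex 2 pair (0.064, 0.064 and 0.065). The other tested probe set of Irf8 was not called (-0.25, adjusted p = 0.59, limma). Psmb9 had 0.39 ± 0.08 (adjusted p = 0.02) and lost it without any single pair (0.058 to 0.11). Irf1, another interferon-response factor, had 0.29 (adjusted p = 0.28).

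Sytl2, a partner of Rab27 in vesicle transport, was at 44.6, 81.6, 59.5 and 62.4 with IL-9 and at 177, 162, 213 and 191 with CCL1 (-1.38 ± 0.13, adjusted p = 4.52e-05). Abat, which degrades the transmitter GABA, was at 39.5, 41.8, 44.6 and 70.9 with IL-9 and at 158, 149, 134 and 128 with CCL1 (-1.30 ± 0.14, adjusted p = 0.000149). Neither overlapped. The sialyltransferase St3gal2 (-1.12), the sorting protein Pacs2 (-1.12), the small GTPases Ralb (-1.12) and Gem (-1.01), the popeye protein Bves (-1.08), the kinase Hunk (-0.9985) and the peptidoglycan amidase Pglyrp2 (-0.97) were also lower, with adjusted p of 8.56e-05 to 0.00431. Gem was at 0.548 to 1.70 with IL-9, below the filter, and at 13.3 to 32.6 with CCL1. It passed the filter only through the CCL1 arrays, so its call is no support for a difference. The calls of Gem (0.053) and Pglyrp2 (0.056) were lost without the Dex 1 pair.

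**Figure D2:**
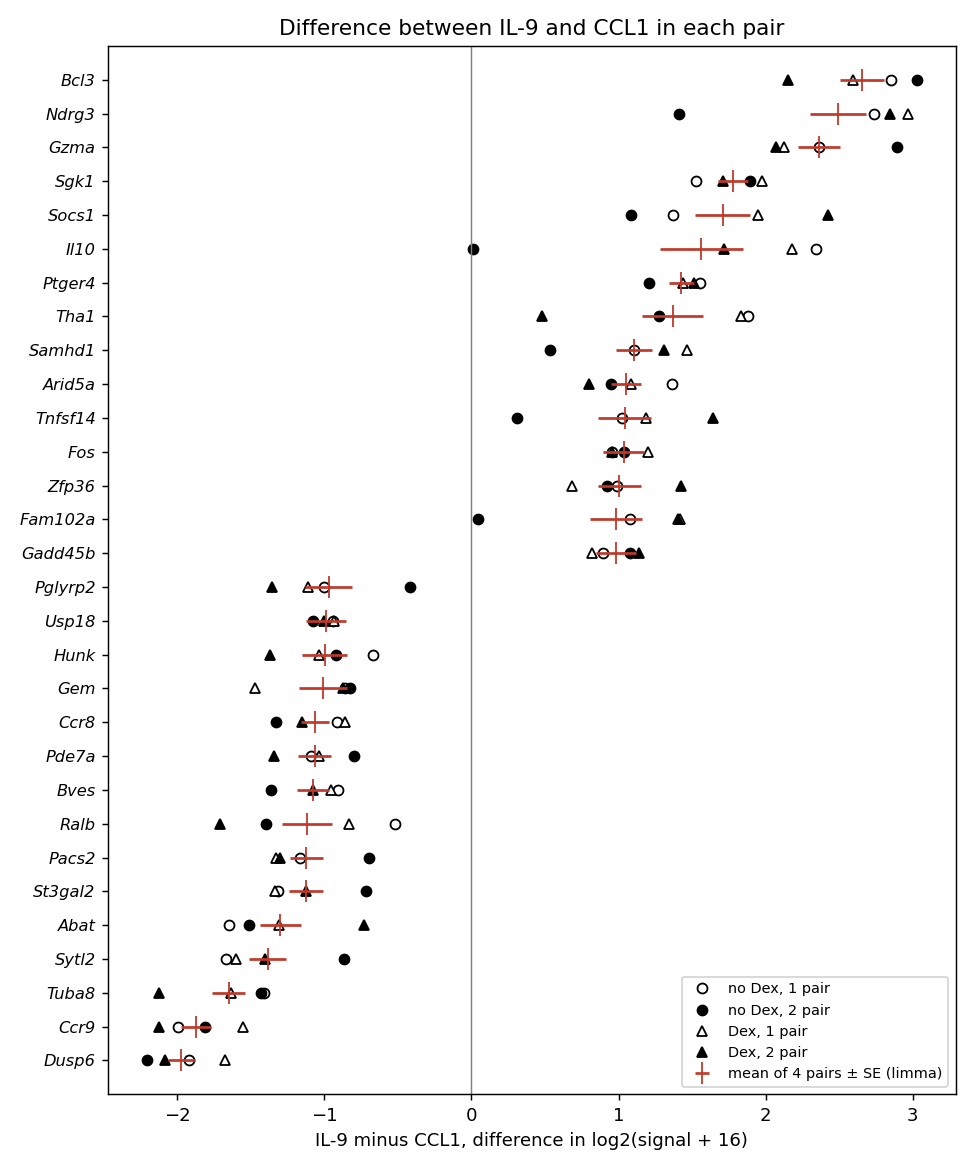
Difference between IL-9 and CCL1 in log2(signal + 16) for the 15 called genes with the largest difference in each direction among those whose 4 pairs have 1 direction, a condition that fixes their side of 0, in each of the 4 pairs (black symbols), with the mean and its SE from limma (red). Points right of 0 are higher with IL-9; Il10 and Fam102a are near 0 in the no Dex 2 pair (0.01 and 0.04).

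These 30 genes had to have 1 direction in all 4 pairs, which favours their keeping a call when a pair is left out, and Tha1 and Gem passed the filter through 1 group only. All 30 passed the threshold without the pair labelled no Dex 1 (highest adjusted p = 0.025), in the 3 pairs of the larger table (0.029) and with all 12 arrays in 1 model (0.028). Without the pairing 23 passed, and Il10, Samhd1, Tnfsf14, Fam102a, Pacs2, Ccr8 and Pglyrp2 did not.

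Among 13 tested genes of cholesterol synthesis, 11 (84.6%) had a negative difference, as did 48.9% of all 7527 genes, and the median was -0.22. Called lower with IL-9 were 2, where 1.26% of all genes were lower. In the larger table alone it was 1 (Cyp51), where 0.93% were lower. Cyp51, which demethylates lanosterol, was at 349, 493, 369 and 479 with IL-9 and at 489, 692, 560 and 607 with CCL1 (-0.47 ± 0.08, adjusted p = 0.0062). Its arrays overlapped, since arrays numbered 2 were higher in both groups. It lost the call without the pairing (0.227), the Dex 1 pair (0.09) or the intensity trend (0.082). Lss, which makes lanosterol, had -0.44 ± 0.09 (adjusted p = 0.026) and lost the call without any single pair (0.069 to 0.129). The other tested probe set of Lss had 0.05 (adjusted p = 0.945, limma). Hmgcs1 (-0.23, adjusted p = 0.213) and Msmo1 (-0.32, adjusted p = 0.059), both enzymes of the same route, were not called. Msmo1 passed the threshold under 4 of 16 alternatives.

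Of 11 tested ID, E protein and TCF genes, which set lymphocyte fate, the E protein Tcf12 was higher with IL-9 (0.43, adjusted p = 0.029) and Lef1 (-0.63, adjusted p = 0.00768) and Tox (-0.43, adjusted p = 0.022) were lower. Lef1 lost its call without the Dex 1 pair (0.085), and Tcf12 and Tox each without 3 of the 4 pairs: Tcf12 without no Dex 2, Dex 1 or Dex 2 (0.144, 0.106 and 0.059) and Tox without no Dex 1, no Dex 2 or Dex 1 (0.098, 0.122 and 0.124). The other tested probe set of Tcf12 was not called (0.14, adjusted p = 0.676, limma). Gata3, a master factor of T helper lineages, had -0.38 (adjusted p = 0.097). Among 19 tested cell cycle and replication genes only the kinase Cdk6 was called (0.59, adjusted p = 0.025), lost without no Dex 1, no Dex 2 or Dex 1 (0.141, 0.118 and 0.105). Among 13 tested NF-kB and IkB genes Bcl3 was the only call, and the inhibitor Nfkbia had 0.14 (adjusted p = 0.62).

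No member was called among 19 ribosome biogenesis genes, 9 BCL2 family genes, 8 T cell receptor and lineage genes and 7 gamma chain family receptor genes tested, nor among 3 myeloid genes and 1 fibroblast gene tested. No B cell or erythroid gene passed the filter. The survival factor Mcl1 had 0.15 (adjusted p = 0.599), and Tnf -0.41 (adjusted p = 0.335). The receptor genes Il9r (-0.05, adjusted p = 0.946) and Nr3c1, the glucocorticoid receptor (0.02, adjusted p = 0.978), were not called. Il9r was at 1.67 to 12.3 with IL-9 and at 3.13 to 12.6 with CCL1, near the filter. Il10rb, which forms the second chain of the IL-10 receptor, had 0.08 (adjusted p = 0.839).

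In the larger table alone, 65 of 7527 genes were higher with IL-9 (0.864%) and 70 lower (0.93%). The called members of the JAK-STAT, NF-kB, SGK and NDRG, immediate-early, chemokine receptor, cAMP, cytokine, TNF superfamily and tubulin lists were those named above. Jak3, Spred2, Rgs3, Tcf12, Tox, Psmb9, Mt1, Lss and Cdk6 were not called there. Beside Dusp1, the calls it added were Srgn (0.45, adjusted p = 0.036) and the receptor adaptor Arrb2 in the Gi and RGS list (-0.62, adjusted p = 0.032). Without the pairing, of the 25 called list members outside the 30 genes only Stat3, Junb and Tle3 passed, the others having an adjusted p of 0.063 to 0.884.

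The arrays without cytokine place each gene on one or other side. Both cytokines were set against the same 4 control arrays in 1 model of 12 arrays, so the 2 comparisons share them and are given side by side only. IL-9 against no cytokine gave 142 calls (1.05%), 55 higher (0.405%) and 87 lower (0.641%). CCL1 against no cytokine gave 110 (0.81%), 52 higher (0.383%) and 58 lower (0.427%). Leaving out 1 array moved the IL-9 count to 17 (Dex+IL-9 1), 22 (Dex 1), 27 (IL-9 1), 38 (unstimulated 1), 78 (Dex+IL-9 2) or 90 (Dex+CCL1 1). It moved the CCL1 count to 3 (Dex 1), 4 (Dex+CCL1 1) or 166 (Dex 2), and to between 33 and 49 without unstimulated 1 or 2, Dex+IL-9 1, Dex+CCL1 2, IL-9 1 or either CCL1 array. In the larger table alone the counts were 111 with IL-9 and 44 with CCL1. With each array centred on its median the first split was 52 higher and 44 lower. The genes named here were chosen for their difference between the same IL-9 and CCL1 arrays, which favours their calls against no cytokine. Bcl3 rose by 2.85 ± 0.15 with IL-9 (adjusted p = 7.91e-07) and had 0.20 ± 0.15 with CCL1 (0.678). Its mean signal was 6.13 without cytokine and 9.32 with CCL1, near the filter signal of 6.48. The size of its rise and its value with CCL1 are therefore read against low signals. Ndrg3 rose by 2.42 ± 0.20 (3.79e-05) with IL-9 and had -0.07 ± 0.20 (0.921) with CCL1. Of the genes highest with IL-9, Gzma, Sgk1, Socs1, Il10, Arid5a, Fos, Zfp36, Fam102a and Gadd45b were also called against no cytokine with IL-9 and not with CCL1. Not being called does not show that CCL1 left them unchanged. With CCL1, Socs1 had -0.53 ± 0.18 (0.257) and Gzma -0.38 ± 0.16 (0.362). Sgk1 had 0.45 ± 0.13 (0.137) and Arid5a 0.31 ± 0.11 (0.291). The others were between -0.25 (Zfp36) and 0.09 (Fos). Tha1 was called with IL-9 and not with CCL1 as well, but its mean signal was 3.13 with CCL1 and 4.14 without cytokine, against a filter signal of 6.48. It passed the filter only through the IL-9 arrays, so this call is no support for a difference either.

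Dusp6 had the reverse arrangement. It rose by 1.57 ± 0.11 with CCL1 (adjusted p = 1.67e-05), whereas IL-9 gave -0.40 ± 0.11 (0.107). Tuba8 rose by 1.41 ± 0.13 with CCL1 (0.000514) and Usp18 by 1.13 ± 0.13 (0.00258), against -0.24 (0.462) and 0.14 (0.695) with IL-9. Abat, Sytl2, Pacs2, Pde7a and Pglyrp2 also rose with CCL1 and were not called with IL-9. Ccr9, although higher with CCL1 than with IL-9, was called against no cytokine with IL-9 and not with CCL1. It fell by 1.59 on the log2 scale with IL-9 (SE 0.15, adjusted p = 0.00016) and had 0.29 ± 0.15 with CCL1 (0.513). St3gal2 had -0.59 ± 0.12 with IL-9 (0.037) and 0.53 ± 0.12 with CCL1 (0.072), nearly equal sizes on either side of the threshold.

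Ptger4 and Ccr8 passed the threshold against no cytokine in both comparisons, in opposite directions. Ptger4 was 0.82 ± 0.09 higher with IL-9 (adjusted p = 0.000551) and fell by 0.61 with CCL1 (SE 0.09, 0.0106). Its control arrays, at 272, 246, 230 and 248, lay between the 2 groups without overlap. Ccr8 fell by 0.57 with IL-9 (SE 0.10, 0.0143) and was 0.50 ± 0.10 higher with CCL1 (0.034). Samhd1, Tnfsf14, Ralb, Bves and Hunk were called against no cytokine in neither comparison, and Gem did not pass the filter in the 12 arrays.

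With each of the 12 arrays left out in turn, the calls with IL-9 of Bcl3, Ndrg3, Gzma, Sgk1, Ptger4, Arid5a and Ccr9 and those with CCL1 of Dusp6, Tuba8 and Usp18 stayed past the threshold. Those with IL-9 of Socs1, Il10, Tha1, Fos, Zfp36, Fam102a, Gadd45b, St3gal2 and Ccr8 were lost without the Dex+IL-9 1 array, and most without others (highest adjusted p per gene 0.073 to 0.199). They stayed past the threshold in 10 of the 12 cases for Socs1 and Ccr8, 9 for Tha1, 8 for Fos, 7 for Zfp36 and Fam102a, 6 for Il10, 5 for Gadd45b and 4 for St3gal2. The call of Tha1 is no support for a difference, for the reason given above. Those with CCL1 of Ptger4, Sytl2, Abat, Pacs2, Pde7a, Ccr8 and Pglyrp2 were lost without Dex 1 or without Dex+CCL1 1 (highest 0.075 to 0.166). They stayed past it in 10 of the 12 cases for Ptger4, Abat and Pde7a, 7 for Pglyrp2, 6 for Sytl2, 5 for Pacs2 and 3 for Ccr8, whose call was also lost without either array of CCL1 alone.

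**Figure D3:**
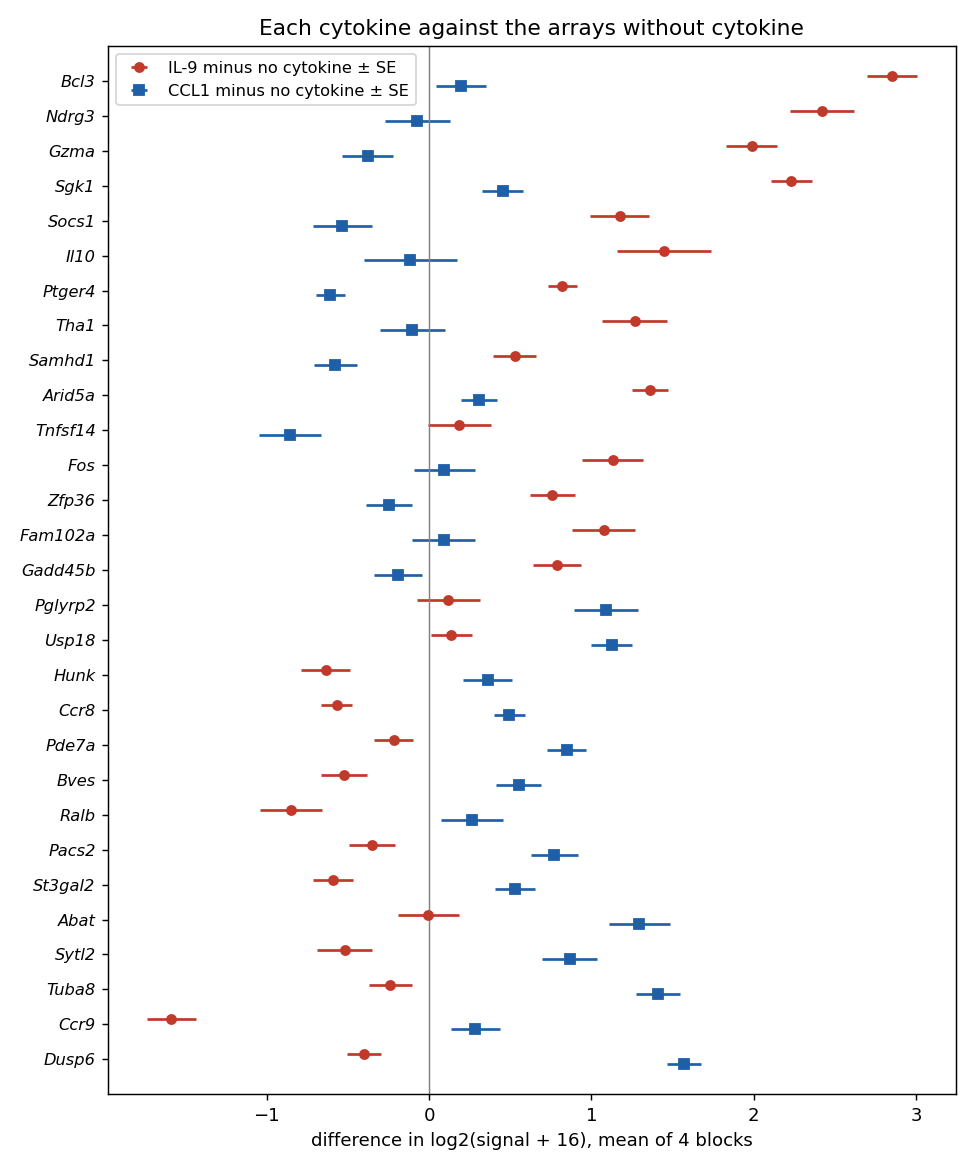
IL-9 (red circles) and CCL1 (blue squares) against the arrays without cytokine, as the difference in log2(signal + 16) with its SE from limma, for 29 of the 30 genes with the largest differences between the cytokines among those with 1 direction in all pairs. Bcl3 is at 2.85 with IL-9 and 0.20 with CCL1, Dusp6 at -0.40 and 1.57, and Ptger4 and Ccr8 lie on opposite sides of 0.

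The difference between the cytokines was next compared between arrays with and without Dex. At the adjusted threshold 0 of 13575 probe sets (0%) had an interaction in limma, the smallest adjusted p was 0.44, and 701 had an unadjusted p under 0.05. The model had 2 residual degrees of freedom and in simulated data recovered 36% of interactions of 2 on the log2 scale, so the count does not show that the cytokines differ alike with and without Dex. It was 10 without the no Dex 1 pair, 6 without no Dex 2, 39 without Dex 1 and 1 without Dex 2. The smallest p belonged to Smc4, a condensin subunit, Dnajc10, an endoplasmic reticulum reductase, Cysrt1, Ptms (parathymosin) and the ribosomal protein Rpl7, with interactions of 0.92, 1.02, -1.79, 1.72 and -1.14. The no Dex label itself covered arrays at 2 levels of glucocorticoid targets, as given above.

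Several genes differed between the pairs rather than with the Dex label. Il10 was at 117 in IL-9 1, 114 in Dex+IL-9 1 and 68.6 in the other array with Dex, but at 5.91 in IL-9 2. The CCL1 arrays were at 10.1, 5.72, 12.7 and 9.75, so the pair differences were 2.34, 0.01, 2.18 and 1.72. Fam102a was at 263, 81.3, 290 and 227 with IL-9 and at 116, 78.6, 98.4 and 75.7 with CCL1, again with a small difference (0.04) in the no Dex 2 pair alone. Tnfsf14 was at 87.7, 18.6, 90.5 and 106 with IL-9, at 34.9, 11.9, 30.9 and 22.9 with CCL1 and at 79.5, 11.8, 81.4 and 91.8 without cytokine. In each of the 3 conditions its no Dex 2 array was lowest.

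Nr4a1, an immediate-early nuclear receptor, showed that pattern in the other direction. It was at 29.0, 11.04, 27.9 and 15.8 with IL-9 and at 87.1, 8.49, 84.7 and 84.7 with CCL1. CCL1 2 lay below all 4 IL-9 arrays and the other CCL1 arrays above them, and the pair differences were -1.20, 0.14, -1.20 and -1.66 (mean -0.98 ± 0.22, adjusted p = 0.036). The call was stronger without the no Dex 2 pair (-1.35, adjusted p = 0.000899) and lost without the no Dex 1, Dex 1 or Dex 2 pair (0.098, 0.203 and 0.173). Pdcd1 (PD-1, an inhibitory receptor of T cells), Ppp1r2 and 1 unnamed probe set were the only other calls of the 297 whose pairs did not all have 1 direction, and they are named for that after their values were seen. Pdcd1 was at 95.2, 23.3, 88.8 and 55.4 with IL-9 and at 12.2, 29.9, 19.2 and 12.5 with CCL1. In all 4 the exception was the no Dex 2 pair. That pair has the lowest level of glucocorticoid targets and is also the one that crosses array types. The part of either in these differences was not tested.

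**Figure D4:**
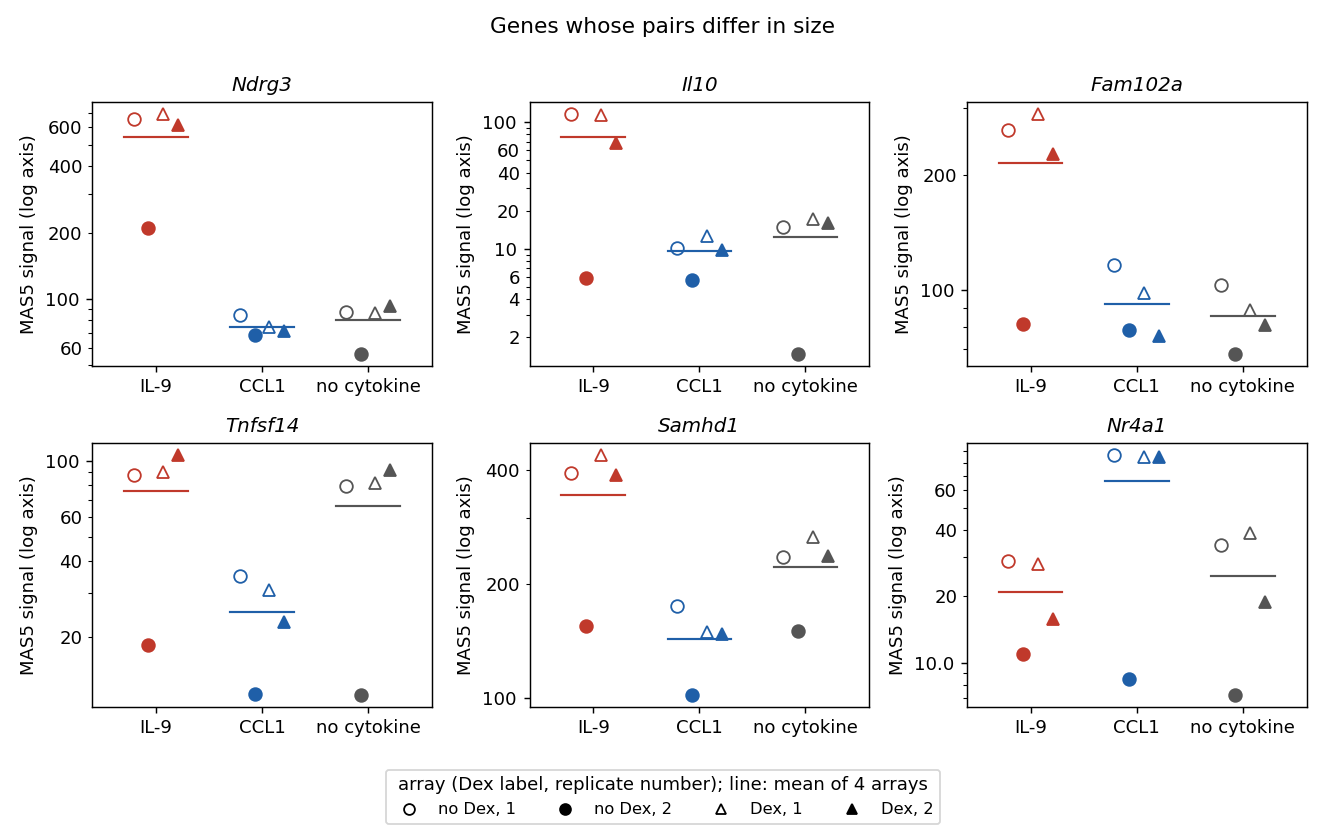
MAS5 signal (log axis) of 6 genes whose pair differences varied, in the 12 arrays by cytokine; points are arrays and lines means of 4 arrays. The filled circles, arrays numbered 2 without Dex, are lowest in all 3 conditions for Ndrg3, Il10, Samhd1, Tnfsf14 and Nr4a1, with Il10 at 5.91 in IL-9 2 against 68.6 to 117 in the other IL-9 arrays.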

How the data were processed

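The deposited values were MAS5 signal intensities, per the submitters' processing notes, in a table of 11 arrays and a table of 1 that were joined by probe set. After 64 control probe sets were removed, 22626 remained, of which 20380 had 1 gene symbol, 691 several and 1555 none. Signals were taken as log2(signal + 16), and 13575 probe sets above the 40th percentile of the mean (a signal of 6.48) were kept.

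Differences were fitted with limma 3.58.1 in R 4.3.3 (intensity trend, Benjamini-Hochberg over the 13575, threshold 0.05), with pair as a block over 8 arrays, or over 12 for the comparisons with no cytokine. Same-numbered arrays deviated together from their group means (r = 0.345 without Dex and 0.202 with Dex). A gene was represented by its brightest probe set with 1 symbol. Other tested probe sets of Ccr9, Ndrg3, Pde7a, St3gal2 and Tle3 were called in the same direction. Those of Rgs3 (adjusted p = 0.237 and 0.358), Socs2 (0.1), Tnfsf14 (0.107), Cyp51 (0.13 and 0.265) and Tox (0.055) were not called. Some of those of Stat3, Samhd1 and Xbp1 were not called either. In simulated data with 200 changed of 13575 probe sets, the model of IL-9 against CCL1 recovered 83% of changes of 1 log2, with 3.21% false calls.

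Members and 27 lists were chosen with earlier results of these data known. Named were the 15 largest differences in each direction with 1 direction in all pairs, the receptors and list members. Il2rg is not reported here. Alternatives were other pseudocounts, filters and scalings, no trend, no pairing, the larger table alone and each array or pair left out.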

Additional observations from a re-analysis of the deposited data

Results flagged for a closer look

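In 7 of 57 genes examined, 1 of the 4 pairs stood apart from the other 3 by more than Dixon's 95% limit for 4 values, where chance gives about 1 in 20. The no Dex 2 pair did so for Ndrg3 (1.41, others 2.74 to 2.97), Tcf12 (0.75, others 0.29 to 0.36) and Gpr65 (-0.29, others -0.64 to -0.59). The Dex 1 pair did so for Gem (-1.47, others -0.87 to -0.82) and Phlda1 (-1.15, others -0.73 to -0.72). The no Dex 1 pair did so for Spred2 (-0.85, others -0.38 to -0.34), and the Dex 2 pair for Psmb9 (0.51, others 0.34 to 0.36). All values are IL-9 minus CCL1 in log2(signal + 16). Most of the 57 genes were chosen by these same pair differences, and all share the same arrays. The 7 of 57 therefore cannot be tested against 1 in 20.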

How the results depend on the processing

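IL-9 against CCL1 gave 297 calls, and 115 without the filter, 129 without the intensity trend, 90 with no replicate block (the pairing), 163 with all 12 arrays, 35 with a log2 difference of at least 1 and 109 to 219 with a pair left out. The interaction gave 0, against 6 in the larger table alone and 1 to 39 with a pair left out. IL-9 against no cytokine gave 142, and 71 without the filter, 37 with no replicate block, 22 with the log2 limit, 96 under median centring (52 higher) and 17 to 170 with an array left out. CCL1 against no cytokine gave 110, and 38 without the filter, 60 under median centring, 49 without the trend, 9 with no replicate block, 44 in the larger table alone, 5 with the log2 limit and 3 to 166 with an array left out. Of 55 named called genes 24 kept the call under every alternative except the log2 limit, and of 868 alternatives 168 lost it and 0 reversed. Among uncalled genes the sign turned for Spry1 (0.0143 under quantile normalization), and for Il9r (0.0209), Nr3c1 (-0.0476) and Cxcr4 (-0.033) in the larger table alone. With a pair left out, values ranged over -0.2704 to 0.117 for Spry1, -0.1228 to 0.0209 for Il9r, -0.0784 to 0.1127 for Nr3c1, -0.033 to 0.1596 for Cxcr4 and -0.0116 to 0.0646 for Jak1. The no-filter counts rest on more probe sets tested and the left-out ones on fewer arrays; the cause of the other shifts was not tested. Signals below about 6.48 limit what can be read, as for Gem, Il9r and the arrays without cytokine of Bcl3.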

Other observations

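A small share of called genes lay next to each other in the gene order of the mouse genome, counting tested genes only and at any distance. Of 180 called genes with a tested next gene, 7.78% had a called one there, against 2.42% of all tested genes. The 14 such pairs all had 1 direction. Only some of them are given here. Among those lower with IL-9 were Lztfl1 with Ccr9 (-0.75 and -1.87), Tuba8 with Usp18 (-1.65 and -0.99) and Popdc3 with Bves (-0.77 and -1.08). Others were Sytl2 with Crebzf (-1.38 and -0.73), the calcium-binding S100a4 with S100a6 (-0.59 and -0.61), and Galc with Gpr65 (-0.58 and -0.53). Among those higher with IL-9 was the run Gadd45g, Auh and Nfil3 (0.77, 0.46 and 0.56). These pairs were chosen after their values were seen, and shared transcripts or probes were not tested.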
